A study of Caenorhabditis elegans
Pristionchus pacificus with 6 samples.

Results

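The dhs genes of the nematode Caenorhabditis elegans encode short-chain dehydrogenases, enzymes that use NAD(H) or NADP(H) to oxidise or reduce small molecules such as steroids, retinoids, alcohols and fatty acid derivatives. The family was taken as the rows of the deposited count table with the identifiers WBGene00000965 to WBGene00000994. All 30 rows were present, out of 73268 rows in all, and all lay before the last 26310 rows, which were taken as Pristionchus pacificus. The rule used identifiers only, not measured values, but the family was chosen with earlier results of these data known. Of the 30 genes, 23 had at least 10 counts in 3 or more of the 6 libraries and were tested, and 7 did not. The table does not pair identifiers with symbols, and 0 of its identifiers occur in the RefSeq gene table (assembly WBcel235). That table lists 30 dhs symbols. By the definition of the family WBGene00000967 is dhs-3, and all other members are given by identifier, with no role assigned to a single one.

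Several dhs enzymes have a known place in the metabolism of this worm. DHS-3 is a protein of lipid droplets, the fat stores that fill the intestinal cells, and it is used as a marker of them. Other members act in the peroxisomal shortening of fatty side chains that yields the ascaroside pheromones, and in the synthesis of the steroid hormone dafachronic acid. The intestine is the main site of fat storage in C. elegans, as well as of digestion and yolk production.

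RNA came from dissected anterior intestines of adult hermaphrodites, collected 72 hours after egg lay and grown at 20 °C. The CDK-2gut(-) strain, with reduced intestinal ploidy, carries the transgene asp-1p::vhhGFP4::zif-1 together with cdk-2::ZF::GFP and zif-1(gk117), and the control strain carries the same tagged cdk-2 allele and zif-1 mutation without the transgene. The transgene expresses, from the asp-1 promoter, a nanobody against GFP fused to ZIF-1, which targets the tagged kinase for degradation. Intestines were pooled into lysates, and lysate of Pristionchus pacificus intestines, taken at 96 hours, was added to each as a spike-in. There were 3 libraries per strain. Whether these are separate cultures is not in the labels, and the p-values therefore reflect a spread between libraries that may be technical.

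C. elegans counts ranged from 11273570 to 15874554 in CDK-2gut(-) libraries and from 9432973 to 10665065 in control libraries. Levels are given as CPM, counts per 1000000 of these C. elegans counts. They are not corrected for gene length, so they compare libraries for 1 gene and not genes with each other. In bulk RNA, fewer cells of a type and less RNA per cell cannot be told apart. Lists of intestinal, germline, muscle, hypodermal and neuronal markers could not be matched to identifiers, so the tissue label, carried-over RNA and the level of cdk-2 were not analysed here. Over all 8505 genes tested, the median log2 fold of CDK-2gut(-) over control was 0.51 on the scale of total C. elegans counts and 0.10 with factors from the trimmed mean of M-values (TMM). It was 0.55 with the P. pacificus spike-in. TMM factors were 1.05 to 1.26 in CDK-2gut(-) and 0.791 to 0.973 in control. A change of scale moves all genes by about the same amount.

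Within the dhs family, 1 gene was far higher and 1 far lower in CDK-2gut(-) than in control under every scale tried, while the other members moved less. WBGene00000988 stood 9.13-fold higher and WBGene00000986 stood 9.96-fold lower. On the scale of total counts, 5 of the 23 tested members rose and 1 fell (quasi-likelihood test of edgeR, adjusted p under 0.05 by Benjamini-Hochberg over all genes tested). Among all genes tested, 21.9% rose and 3.49% fell, so the members' shares of 21.7% and 4.35% were near the background. The median log2 fold of the tested members was 0.51, the same to 2 decimals as that of all genes tested.

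**Figure D1:**
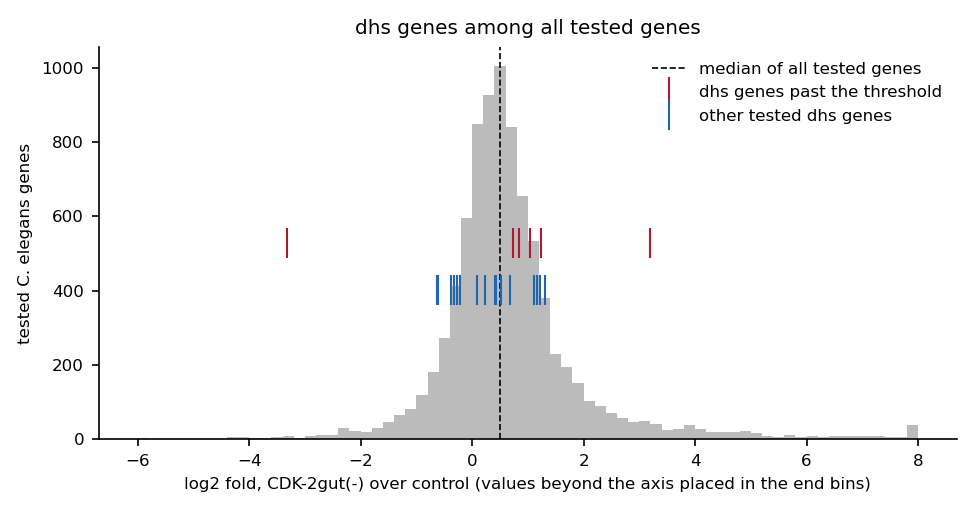
Histogram of the log2 fold (CDK-2gut(-) over control, total-count scale) of 8505 tested C. elegans genes, with tick marks for the 23 tested dhs genes (red for those past the adjusted p threshold of 0.05, blue for the others) and a dashed line at the median of all genes, 0.51. WBGene00000988 at 3.19 and WBGene00000986 at -3.32 lie in the tails, and the other 21 dhs genes lie between -0.63 and 1.31.

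WBGene00000988 supplied most dhs counts in CDK-2gut(-). Its level was 4091, 4146 and 4574 CPM in CDK-2gut(-) libraries 1 to 3, against 414, 338 and 652 CPM in control libraries 1 to 3. All 3 CDK-2gut(-) libraries lay far above all 3 controls. Relative to the mean, the spread was smaller in CDK-2gut(-) than in control, with coefficients of variation of 6.18% and 35.0%, and library 3 was the highest in both. The means were 4270 ± 264 CPM in CDK-2gut(-) and 468 ± 164 CPM in control (SD, n = 3 each). The log2 fold was 3.19 ± 0.25 (SE; adjusted p = 0.000190 in edgeR). It was 2.75 with TMM (adjusted p = 0.00101) and 3.26 with the spike-in (adjusted p = 2.48e-05). Of the 8505 genes tested, 385 had a larger log2 fold on the total-count scale.

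Per spike-in count the libraries of the strains were also far apart. WBGene00000988 had 21.2, 19.1 and 12.7 counts per 1000 P. pacificus counts in CDK-2gut(-) libraries 1 to 3, against 2.22, 1.52 and 1.81 in control libraries 1 to 3. Raw counts were 64944, 52146 and 51562 in CDK-2gut(-) and 3904, 3601 and 6543 in control, so counting error is small beside the spread between libraries. Rows next to this gene in the file also stood higher. Of 5 tested genes within 5 rows, 4 rose, with log2 folds of 0.88 to 3.56 over the 5, where 21.9% of all genes tested rose. Whether reads are shared between such rows was not tested, and the sources do not state that file order follows the chromosome.

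WBGene00000986 showed the opposite pattern. It had 1.95, 1.27 and 1.51 CPM in CDK-2gut(-), against 10.8, 15.3 and 21.5 CPM in control. The groups did not overlap, and the lowest control lay well above the highest CDK-2gut(-) library. Raw counts were 31, 16 and 17 in CDK-2gut(-) and 102, 163 and 216 in control. The log2 fold was -3.32 ± 0.35 (SE; adjusted p = 0.000552 in edgeR). It was -3.76 with TMM (adjusted p = 0.000281) and -3.21 with the spike-in (adjusted p = 0.000728). Only 33 of the 8505 genes tested had a lower log2 fold. The 2 tested genes within 5 rows of it in the file had log2 folds of 0.47 and 0.58, and neither passed the test.

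**Figure D2:**
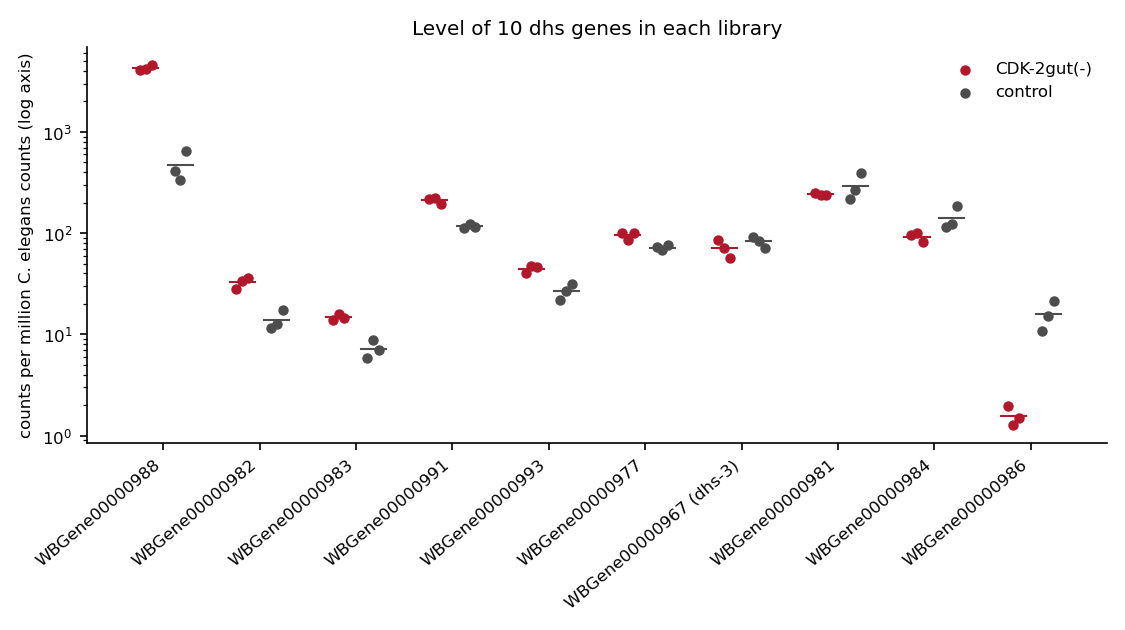
CPM (log axis) of 10 dhs genes in each library, with CDK-2gut(-) in red left of control in grey and horizontal lines at the group means (n = 3). The points of WBGene00000988 and WBGene00000986 are widely separated by strain, those of WBGene00000982, WBGene00000983, WBGene00000991, WBGene00000993, WBGene00000977 and WBGene00000984 are separated by smaller gaps, and those of WBGene00000981 and dhs-3 overlap.

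These differences changed the make-up of the family's counts, a measure that does not depend on the library scale. The counts are not corrected for gene length, so their shares are not shares of transcripts. WBGene00000988 took 79.4%, 80.3% and 82.7% of all dhs counts in CDK-2gut(-), against 33.7%, 26.6% and 37.1% in control. For libraries 3, Wilson 95% intervals were 82.4% to 83.0% in CDK-2gut(-) and 36.4% to 37.8% in control, and these cover counting error only. The mean share was 80.8% ± 1.72 in CDK-2gut(-) and 32.5% ± 5.40 in control (SD, n = 3 each; exact permutation test, two-sided p = 0.1, the smallest that 3 libraries against 3 allow). WBGene00000988 was singled out in these same libraries, so that test adds no independent support.

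Summed over all 30 members, dhs counts came to 5155, 5161 and 5529 CPM in CDK-2gut(-), against 1227, 1272 and 1755 CPM in control. The ratio of means was 3.73, and every CDK-2gut(-) library exceeded every control (exact permutation, two-sided p = 0.1, the smallest possible). Without WBGene00000988, the other 29 members together had 1063, 1015 and 956 CPM in CDK-2gut(-) and 813, 934 and 1104 CPM in control. These groups overlapped, with means of 1011 ± 54.02 CPM in CDK-2gut(-) and 950.2 ± 146 CPM in control (SD, n = 3 each; two-sided exact permutation test, p = 0.6). The higher sum was thus carried by 1 gene. Per 1000 counts of these other members, WBGene00000986 had 1.84, 1.25 and 1.58 counts in CDK-2gut(-), against 13.3, 16.4 and 19.5 in control (exact permutation test, two-sided p = 0.1, the smallest possible). WBGene00000986 was singled out in these same libraries, so that test adds no independent support.

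**Figure D3:**
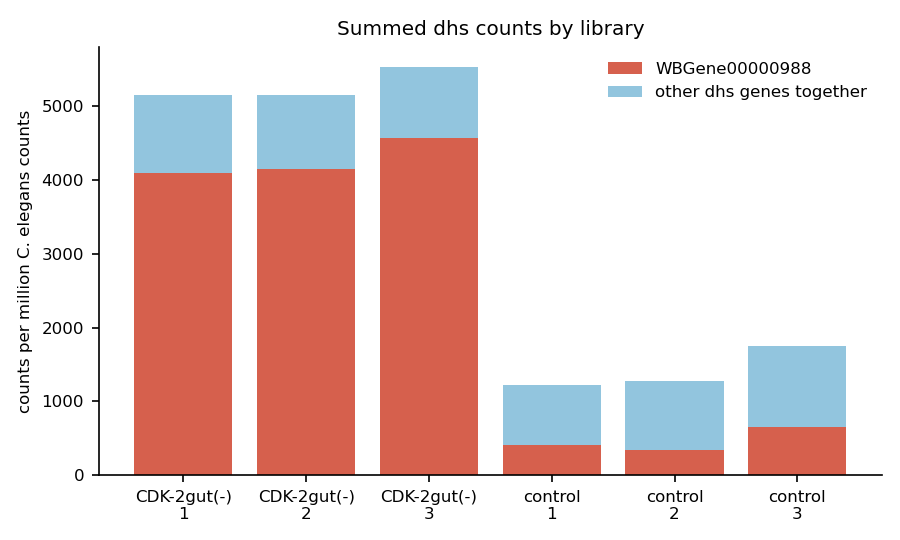
Summed dhs counts in CPM in each library, split into WBGene00000988 (red, 4091 to 4574 CPM in CDK-2gut(-) and 338 to 652 CPM in control) and the other 29 members together (blue, 956 to 1063 CPM in CDK-2gut(-) and 813 to 1104 CPM in control). The red part sets the bars of the strains apart, and the blue parts are of similar height.

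Another 4 members rose on the scale of total counts, by 1.67-fold to 2.34-fold, and in each of them all CDK-2gut(-) libraries lay above all controls. WBGene00000982 had 28.3, 33.9 and 35.7 CPM in CDK-2gut(-), against 11.7, 12.6 and 17.5 CPM in control. Its log2 fold was 1.23 ± 0.21 (SE; adjusted p = 0.00496 in edgeR). The lowest CDK-2gut(-) library thus exceeded the highest control by a wide margin. The 1 tested gene within 5 rows of it also rose, with a log2 fold of 2.29. WBGene00000983 had 13.98, 15.8 and 14.5 CPM in CDK-2gut(-), against 5.83, 8.72 and 7.07 CPM in control, a log2 fold of 1.03 ± 0.24 (SE; adjusted p = 0.0151 in edgeR).

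WBGene00000991 was the tightest of these genes. It had 215, 221 and 195 CPM in CDK-2gut(-), against 113, 123 and 115 CPM in control, a log2 fold of 0.84 ± 0.11 (SE; adjusted p = 0.00165 in edgeR). WBGene00000993 had 40.8, 46.9 and 46.5 CPM in CDK-2gut(-), against 21.8, 26.6 and 31.8 CPM in control, a log2 fold of 0.74 ± 0.18 (SE; adjusted p = 0.0191 in edgeR). All 4 genes were also called higher with the spike-in (P. pacificus totals times TMM factors), where 5 members rose and 1 fell, against 16.4% and 2.39% of all genes. Only the call for WBGene00000982 held on that scale whichever library was left out. That for WBGene00000983 was lost without any 1 library (edgeR adjusted p of 0.0521 to 0.176). That for WBGene00000991 was lost without CDK-2gut(-) library 1 or 2 (0.0587 and 0.0822). That for WBGene00000993 was lost without control library 1 or 2 and without CDK-2gut(-) library 1 or 2 (0.0699, 0.0801, 0.0717 and 0.153). The ratio of C. elegans to P. pacificus counts followed the replicate number, and these fits held no term for it. With that number as a block and all 6 libraries, the 4 genes were called on that scale. Their edgeR adjusted p were 0.00658 for WBGene00000982, 0.0227 for WBGene00000983, 0.00448 for WBGene00000991 and 0.0161 for WBGene00000993. With plain P. pacificus totals none of the 4 passed, with edgeR adjusted p of 0.167 for WBGene00000982, 0.402 for WBGene00000983, 0.282 for WBGene00000991 and 0.479 for WBGene00000993. The log2 folds in that fit, 1.26, 1.04, 0.85 and 0.78 in the same order, were near those on the total-count scale. It too held no term for the replicate number. Within 5 rows in the file, 0 of 4 tested genes passed the test in either direction beside WBGene00000983, 3 of 5 beside WBGene00000991 and 2 of 4 beside WBGene00000993. Log2 folds of these neighbours were -0.59 to 0.027, -0.87 to 1.44 and -0.84 to 1.14 in that order. Among all genes tested, 21.9% rose and 3.49% fell on that total-count scale.

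With TMM none of these 4 passed the test. Their TMM log2 folds were 0.81 for WBGene00000982, 0.63 for WBGene00000983, 0.43 for WBGene00000991 and 0.33 for WBGene00000993, with edgeR adjusted p of 0.0686, 0.0890, 0.0820 and 0.391 in that order. The rise of these 4 genes was thus called as a share of all C. elegans counts and with P. pacificus totals times TMM factors, but with neither plain P. pacificus totals nor TMM. The call for WBGene00000983 was also lost without control library 1, CDK-2gut(-) library 2 or CDK-2gut(-) library 3 (edgeR adjusted p of 0.0523, 0.0731 and 0.0526). That for WBGene00000993 was lost without the same libraries (edgeR adjusted p of 0.0537, 0.0835 and 0.0693).

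dhs-3, the lipid droplet protein gene, did not pass the test on the total-count scale. It had 85.4, 71.7 and 57.0 CPM in CDK-2gut(-), against 92.1, 84.4 and 71.9 CPM in control. The groups overlapped, and within each strain library 1 was the highest and library 3 the lowest. The log2 fold was -0.21 ± 0.18 (SE; adjusted p = 0.445 in edgeR), with a 95% interval of -0.63 to 0.20. With the spike-in it was -0.17 (adjusted p = 0.749), and with the spike-in and the replicate number as a block -0.18 (edgeR adjusted p = 0.338). With TMM, dhs-3 was called lower, at -0.64 (edgeR adjusted p = 0.0300), and DESeq2 also called it lower, at -0.78 (adjusted p = 0.000717). The TMM call was lost without control library 1 (edgeR adjusted p = 0.131) and without CDK-2gut(-) library 1, 2 or 3 (0.0684, 0.120 and 0.129). As a share of the counts of all members except WBGene00000988, dhs-3 made up 8.03%, 7.07% and 5.97% in CDK-2gut(-) and 11.3%, 9.04% and 6.51% in control (two-sided exact permutation test, p = 0.3).

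Of the other members with high counts, WBGene00000984 had 95.2, 100.3 and 81.9 CPM in CDK-2gut(-), against 114, 124 and 184 CPM in control. The groups did not overlap, yet the log2 fold of -0.61 ± 0.20 (SE) missed the threshold (edgeR adjusted p = 0.0613). Without control library 3, the highest control, it was -0.36, and without replicate 3 of both strains -0.28 (edgeR adjusted p of 0.0782 and 0.137). With TMM and without control library 3 it was -0.74 (edgeR adjusted p = 0.00691). The gene was called lower in 5 of 17 alternatives. Without control library 2 it was called at -0.69 (edgeR adjusted p = 0.0448), and with TMM at -1.05 (edgeR adjusted p = 0.0199). DESeq2 called it at -1.21 (adjusted p = 0.000985). It was also called with library sizes without the 10 most abundant genes, at -0.89, and with no filter on low counts, at -0.61 (edgeR adjusted p of 0.00767 and 0.0074). The TMM call was lost without control library 1 and without CDK-2gut(-) library 1, 2 or 3 (edgeR adjusted p of 0.0547, 0.0783, 0.0695 and 0.0854). TMM thus called 3 members lower and 1 higher, where 6.65% of all genes fell and 11.8% rose.

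WBGene00000981 had 248, 239 and 241 CPM in CDK-2gut(-), against 216, 266 and 396 CPM in control. The control values enclosed those of CDK-2gut(-) (log2 fold -0.27 ± 0.21 SE, edgeR adjusted p = 0.411). Without control library 3 the log2 fold was 0.0090. DESeq2 called the gene lower, at -0.87 (adjusted p = 0.0381), while TMM gave -0.70 and no call (edgeR adjusted p = 0.107). WBGene00000977 had 99.9, 85.6 and 101 CPM in CDK-2gut(-), against 72.6, 67.5 and 75.8 CPM in control. These groups did not overlap, but the log2 fold of 0.41 ± 0.13 (SE) missed the threshold (edgeR adjusted p = 0.0521), and it was -0.011 with TMM. The gene was called in 2 of 17 alternatives, at 0.45 in both. These were the fit without control library 3 (edgeR adjusted p = 0.0399) and that with the spike-in and the replicate number as a block (0.0464). In the file, WBGene00000977 lies 2 rows from the member WBGene00000978.

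**Figure D4:**
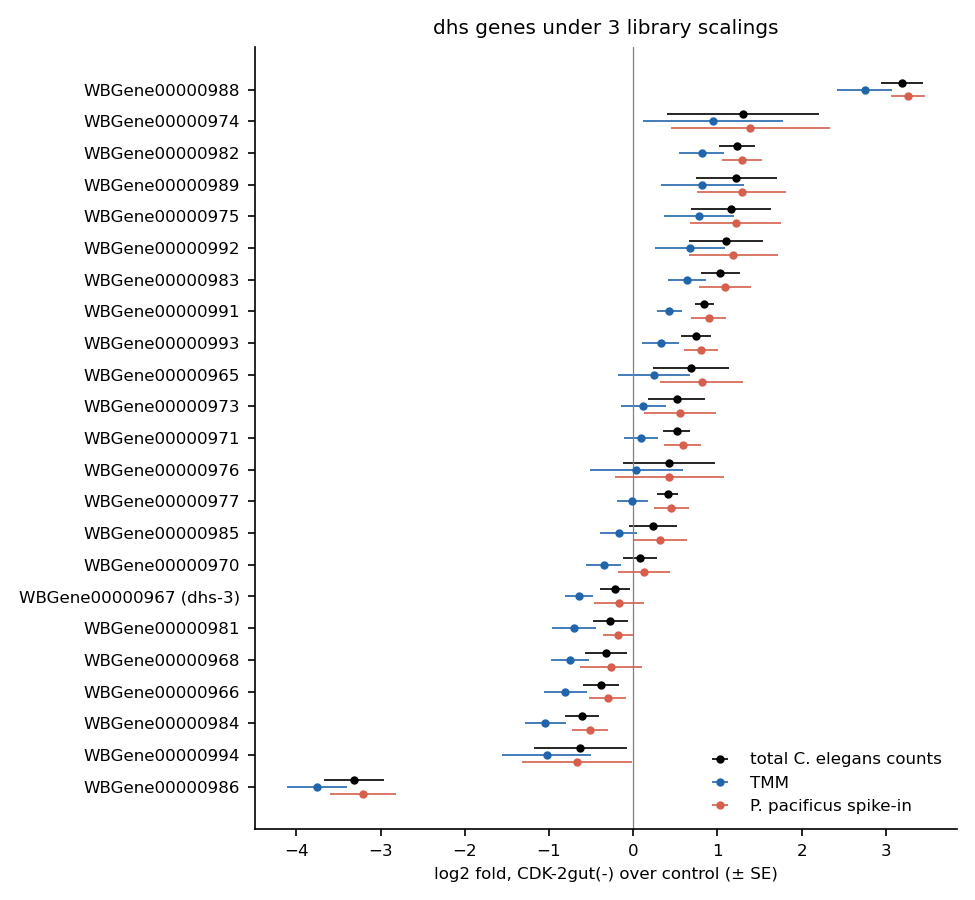
Log2 fold of CDK-2gut(-) over control with its standard error for the 23 tested dhs genes, with library sizes from total C. elegans counts (black), TMM factors (blue) and the P. pacificus spike-in (red). TMM places all 23 genes lower than total counts do, by similar amounts. WBGene00000988 and WBGene00000986 stay far from 0 on all 3 scales, while with TMM WBGene00000977 lies at -0.011 and dhs-3 at -0.64.

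The remaining 13 tested members had mean levels of 1.16 to 68.2 CPM in CDK-2gut(-) and 0.510 to 58.0 CPM in control. None passed the edgeR test on the total-count scale, with adjusted p of 0.0570 to 0.821, and 4 had an unadjusted p under 0.05. Log2 folds were above 0 for 10 of them and below 0 for 3, from -0.63 for WBGene00000994 to 1.31 for WBGene00000974. Without control library 2, WBGene00000974 was called higher at 2.98 and WBGene00000975 at 1.66 (edgeR adjusted p of 0.0456 and 0.0260), and without control library 3 WBGene00000971 was called at 0.65 (0.0216). The filter on low counts was set on all 6 libraries. WBGene00000974 met it in just 3, and the left-out control library 2, with 13 counts, was 1 of them. The other control libraries held 2 and 1 counts, so this gene would fail the filter in that fit. DESeq2, whose size factors put the median of all genes at -0.026, called 2 of the 13 lower, namely WBGene00000966 at -0.97 and WBGene00000968 at -0.89 (adjusted p of 0.0209 and 0.0114). It called 6 of the 23 members lower and 1 higher, where 9.69% of all genes fell and 10.9% rose. WBGene00000966 was also called lower with library sizes without the 10 most abundant genes, at -0.66 (edgeR adjusted p = 0.0373). In TMM fits chosen after seeing the data, WBGene00000966 and WBGene00000968 were called lower without control library 2, and WBGene00000994 without control library 3.

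Over all 23 tested members, 9 had every CDK-2gut(-) library above every control in CPM, and 2 had every CDK-2gut(-) library below. This is 39.1% and 8.70% of them, beside 39.1% and 6.37% of all genes tested. Like the genes as a whole, members varied less among CDK-2gut(-) than among control libraries. Their coefficient of variation had a median of 16.4% in CDK-2gut(-) and 26.9% in control, beside 19.9% in CDK-2gut(-) and 32.8% in control over all genes tested. It was larger in control for 69.6% of the members and 72.8% of all genes tested. Control library 3 held the highest control value of 11 members and the lowest of 7, so the members did not move together between control libraries. These counts are descriptions without a test.

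**Figure D5:**
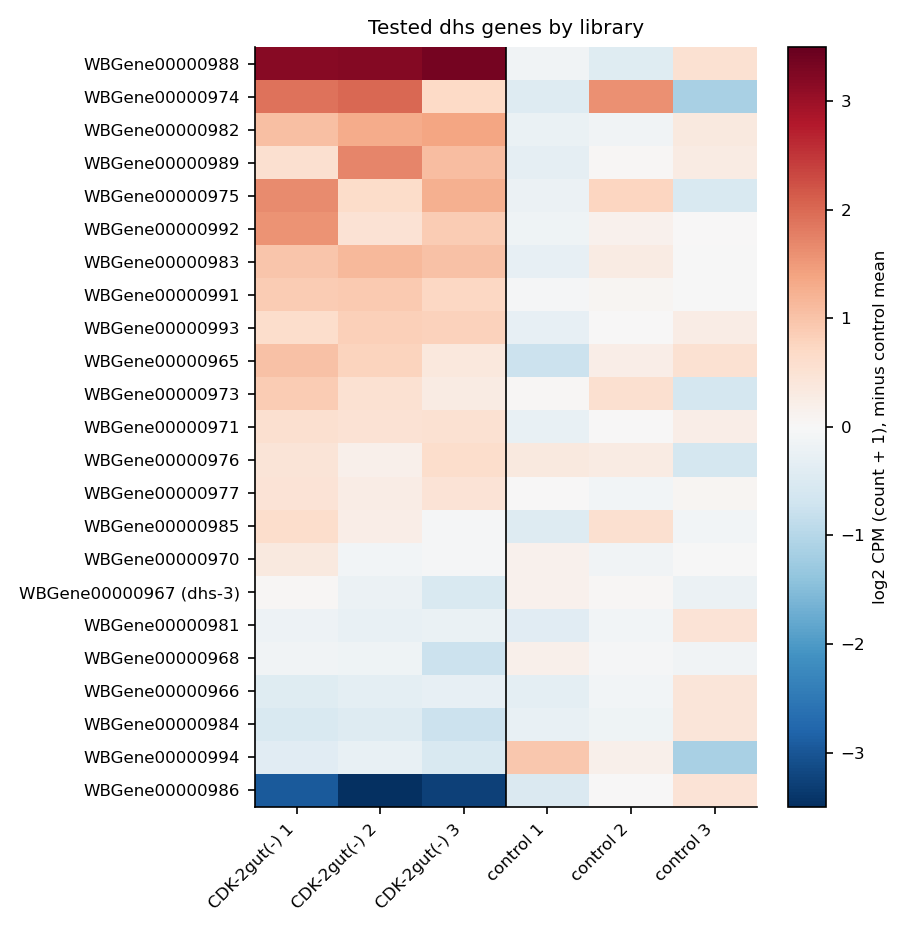
Log2 of CPM computed after adding 1 count, minus the control mean, for the 23 tested dhs genes (rows, ordered by log2 fold) in the 3 CDK-2gut(-) and 3 control libraries (columns). The top row, WBGene00000988, and the bottom row, WBGene00000986, are strongly coloured in all 3 CDK-2gut(-) libraries, and rows between them are paler.

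The 7 members that were not tested had few counts in these libraries. WBGene00000980 lay just outside the filter, with 6, 11 and 1 counts in CDK-2gut(-) and 10, 0 and 1 in control. WBGene00000974 lay just inside it, with 25, 21 and 7 counts in CDK-2gut(-) and 2, 13 and 1 in control. WBGene00000978 had 2 counts in CDK-2gut(-) and 16 in control over 3 libraries each, and all 16 came from control library 2. WBGene00000969 had 0 counts in all 3 CDK-2gut(-) libraries and 8 in control. A count of 0 allows up to 0.189 to 0.266 CPM in a CDK-2gut(-) library, and the control libraries stood at 0.106 to 0.375 CPM. Fitted with no filter on low counts, WBGene00000969 did not pass the edgeR test after adjustment (unadjusted p = 0.0420, adjusted p = 0.201). WBGene00000972, WBGene00000979, WBGene00000987 and WBGene00000990 had at most 9 counts over the 3 libraries of either strain.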

How the data were processed

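The authors deposited raw counts for the genes of both species in 1 table. Their processing notes name the aligner STAR and the read counter featureCounts, with no version, build or strand setting in the sources used here. Per the file name, multi-mapping reads were left out, which can undercount near-identical genes. Columns were matched to samples by name. The boundary between species was taken over from an earlier reading of these data, which inferred it from the counts. The RefSeq table holds 46926 genes, and using that as the boundary moved 4011 counts.

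Genes with at least 10 counts in 3 libraries were tested with edgeR 4.0.16 (R 4.3.3), robust quasi-likelihood fits over all 8505 genes, with C. elegans totals as library sizes. The SE of a log2 fold is its size over the root of F. Alternatives used TMM, the spike-in (P. pacificus totals times TMM factors) and DESeq2 1.42.0. In a simulation of this comparison with 8505 genes, 22 of 66 genes with 4-fold changes were called, 2 of 67 with 2-fold and 0 of 67 with 1.5-fold changes, and 2 of 8305 without change. Small folds can thus be missed. The rates themselves do not carry over to the data, where 21.9% of genes were called higher and 3.49% lower. The simulation changed far fewer genes, which makes the adjusted threshold stricter. Named members are those called, dhs-3 and the 5 with the highest mean CPM. Members and lists were chosen with earlier results of these data known. The 11 lists of pathway and marker genes by symbol matched 0 identifiers and were not analysed. Sequences were not used here.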

Additional observations from a re-analysis of the deposited data

How the results depend on the processing

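WBGene00000988 and WBGene00000986 kept their direction and passed the test in all 17 alternatives, with log2 folds of 2.58 to 3.51 and -3.93 to -3.0. They also passed with TMM and with the spike-in when single libraries were left out, a set of fits chosen after seeing the data (2.33 to 3.43 and -4.11 to -3.06). The number of members called higher was 1 with TMM, with plain P. pacificus totals and with DESeq2, and 3 with library sizes without the 10 most abundant genes, against 5 with C. elegans totals. Among all genes, 11.8%, 8.70%, 10.9% and 13.1% were higher in these fits. The number called lower was 3 with TMM, 3 without the 10 most abundant genes, 6 with DESeq2 and 2 with no filter on low counts, against 1, beside 6.65%, 5.54%, 9.69% and 1.96% of all genes. The median log2 fold of tested members was 0.092 with TMM, 0.20 without the 10 most abundant genes, -0.060 with DESeq2 and 0.41 without replicate 3 of both strains, an alternative chosen after seeing the data in which 4 members were higher and 1 lower (16.7% and 2.59% of all genes). Leaving out 1 library at a time gave 3 to 7 members higher, 1 to 2 lower and a median of 0.40 to 0.57, with 12.97% to 27.1% of all genes higher and 2.13% to 3.55% lower. The log2 fold of WBGene00000977 was -0.011 with TMM and -0.16 with DESeq2, and that of WBGene00000981 was 0.015 without replicate 3 of both strains and -0.45 to 0.0090 with 1 library left out. A change of scale moves all genes together by construction. The cause of the other shifts was not tested. The log2 difference of the family sum was 1.92, and 1.82 to 2.08 with 1 library left out at a time. It was 0.0998 without WBGene00000988, 1.502 with TMM and 1.91 per P. pacificus count.

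With 1 library left out, the log2 fold of WBGene00000977 with TMM was -0.29 to 0.066, and that of dhs-3 with the spike-in was -0.41 to 0.057.

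Strains share replicate numbers, but deviations from the group means correlated at 0.11, -0.048 and 0.21 for numbers 1, 2 and 3. The numbers were not taken as pairs in the main fit. These correlations were computed on the scale of total C. elegans counts, so they cannot show a spike-in ratio shared by number. CDK-2gut(-) 1 correlated best with control 2, at 0.41, and not with its own number. The ratio of C. elegans to P. pacificus counts did follow the number, at 5.19, 4.61 and 2.78 in CDK-2gut(-) 1 to 3 and 5.35, 4.51 and 2.78 in control 1 to 3. With the replicate number as a block, 5 members were higher and 1 lower (18.2% and 2.85% of all genes). With the block and the spike-in 6 were higher and 1 lower (20.4% and 2.81%), the sixth being WBGene00000977 (edgeR adjusted p = 0.0464). Depth limits the 7 untested members and those near 1 CPM.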
